A study of Mus musculus with 12 samples.

Results

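Genes of intestinal bile acid handling were followed through the proximal colon of 12 mice. They were Slc10a2, Fabp6, Slc51a, Slc51b, Nr1h4, Nr0b2, Fgf15 and Gpbar1. The 8 were taken by name, for their roles in bile acid uptake, transport and sensing, and not by a measured value. Earlier results of these data were known when they were chosen. They were found among the 38924 genes listed by matching Ensembl identifiers to mouse symbols. Of the 8, 7 were among the 20311 genes with enough counts to be tested between genotypes (at least 10 counts in at least 3 mice), and Nr0b2 was not. Only 6 had at least 10 counts in 3 mice of each genotype, since Fgf15 reached this in WT but not in APC Min/+.

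Bile acids are made in the liver, released into the gut and taken back up mainly in the terminal ileum. Slc10a2 (the apical sodium-dependent bile acid transporter) brings them into the enterocyte, Fabp6 (ileal lipid binding protein) binds them in the cytosol, and the heteromer of Slc51a and Slc51b (organic solute transporter alpha and beta) exports them across the basolateral membrane. Nr1h4 (FXR) is the nuclear receptor for bile acids, Nr0b2 (SHP) and Fgf15 are among its classical targets, and Fgf15 is secreted to restrain bile acid synthesis in the liver. Gpbar1 (TGR5) is a cell surface receptor for bile acids. In the mouse, Fabp6, Slc10a2 and Fgf15 are usually described as genes of the ileum, which is why their presence in colon samples was examined.

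RNA was sequenced from the proximal colonic mucosa of 6 APC Min/+ and 6 WT mice, 1 library per mouse. All were 6-week-old females on the C57BL/6 strain. APC Min/+ mice carry a heterozygous Min mutation of Apc and develop intestinal polyps, and the study asked what differs in the colon before polyps appear. The genotypes were housed in separate cages, so genotype and cage cannot be told apart, and the labels do not name the shipment a mouse came with. The RNA came from a short section of tissue that can hold epithelium, immune cells, nerve and muscle, and in such bulk RNA fewer cells of a type and less RNA per cell cannot be told apart.

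The DNA just upstream of 4 of these genes is shown because 3 of them (Slc10a2, Slc51a and Slc51b) were lower in M10_2 and M13_1 than in any other mouse, while Fabp6, also low in both, was as low in M8_2 and highest in M18_2b. The sequences are from RefSeq (GRCm38.p6), written 5′ to 3′ on the strand of the gene. Each begins 250 bases before the RefSeq transcription start, and bases that fall inside the GENCODE gene are left out. Nr1h4 was also lower in M10_2 and M13_1 than in any other mouse, but is not shown because its 250 bases fall inside its GENCODE gene. Capitals mark matches, on either strand, to TTTAT (the core letters bound by Cdx factors), AGGTCA (a nuclear receptor half-site) and TTAATNATT (the core of an HNF1 site), and runs of capitals longer than these letters are matches that overlap.
Slc10a2, chr8:5105352-5105537, minus strand: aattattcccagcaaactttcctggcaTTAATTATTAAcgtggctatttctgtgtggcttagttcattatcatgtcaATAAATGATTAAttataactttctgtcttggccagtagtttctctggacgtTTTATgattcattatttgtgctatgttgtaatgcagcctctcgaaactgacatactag
Slc51a, chr16:32487880-32488129, minus strand: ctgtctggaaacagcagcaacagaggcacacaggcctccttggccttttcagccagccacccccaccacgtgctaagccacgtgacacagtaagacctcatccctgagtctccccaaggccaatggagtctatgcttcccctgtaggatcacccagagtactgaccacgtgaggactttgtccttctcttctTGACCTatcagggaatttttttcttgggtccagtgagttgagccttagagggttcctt
Slc51b, chr9:65422956-65423023, minus strand: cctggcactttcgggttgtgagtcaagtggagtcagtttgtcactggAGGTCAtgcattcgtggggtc
Fabp6, chr11:43601563-43601812, minus strand: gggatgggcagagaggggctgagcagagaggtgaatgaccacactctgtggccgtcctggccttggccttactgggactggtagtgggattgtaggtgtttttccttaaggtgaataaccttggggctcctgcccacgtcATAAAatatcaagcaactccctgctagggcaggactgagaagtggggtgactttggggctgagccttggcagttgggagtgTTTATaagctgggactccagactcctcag
Promoters of 7 of the 8 genes matched the RefSeq table, and Fgf15 did not. Over 250 bases upstream, TTTAT was found in 4 of the 7 (Slc10a2, Fabp6, Nr1h4 and Nr0b2) and in 37.3% of 32851 mouse promoters. The Nr0b2 match lay 27 to 23 bases before the start, and a Fabp6 match 29 to 25. These 5 letters are common and do not by themselves show that a match is a Cdx site. AGGTCA was found in 3 of the 7 (Nr1h4, Slc51a and Slc51b) and in 14.0% of all. TTAATNATT was found in the Slc10a2 promoter, in none of the other 6, and in 1.40% of all. Neither GGTCANTGA, the core of the inverted repeat bound by FXR (0.731% of all), nor CAAAGTCCA, a core bound by HNF4 (0.384% of all), was found in any of the 7. These are exact matches of letters within a short window, and no factor binding was measured. Sites that differ from the searched letters were not counted, so a lack of matches does not show that a site is absent.

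Total counts on genes ranged from 50313805 to 197914821 per mouse, at which 3 counts corresponded to 0.0152 to 0.0560 CPM (counts relative to the library total, scaled by TMM normalization). Apc itself was at 192.2 ± 16.97 CPM in APC Min/+ and 186.2 ± 30.7 in WT (SD, n = 6 each), and since Min is a point mutation this level does not check the labels. The summed level of 9 colonocyte markers was 6905 and 8501 CPM in the APC Min/+ mice M10_2 and M13_1 and 23049 to 44334 in the other 10 mice. The sum of 5 distal colon markers (Hoxa13, Hoxb13, Hoxd13, Tgm3 and Atp12a) was 3755 CPM in M10_2, 3592 in M13_1 and 4.50 to 15.4 elsewhere, which goes against the proximal label of these libraries. In M18_2b (APC Min/+) and M19_1 (WT), the Paneth cell defensin Defa24 was at 11.8 and 6.27 CPM, against 0 to 0.562 in the other 10. Results are therefore also given without each of these pairs.

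Of the 8 genes, 5 were strongly expressed in the colon and 3 were at or near the limit of counting. Compared per length, as RPKM (CPM divided by gene length), mean levels over 12 mice were 110 ± 69.0 for Slc10a2 (SD), 105 ± 50.4 for Slc51b and 96.8 ± 46.9 for Slc51a. Nr1h4 followed at 52.2 ± 16.8 and Fabp6 at 36.1 ± 32.3. These means were higher than those of 94.2% to 98.4% of all genes with a count.

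The order among the leading genes was not the same in every mouse. Slc10a2 was above Slc51b in 5 of 12 mice, and by medians the order was Slc51b (108 RPKM), Slc51a (107) and Slc10a2 (107). No test was run between these 3 genes. Slc51b was above Slc51a, and Slc51a above Nr1h4, in 10 of 12 mice each. Nr1h4 was above Fabp6 in 8 of 12, and their ranges overlapped. After Fabp6 came a gap with no overlap in any mouse: the lowest Fabp6 level was 5.32 RPKM and the highest Gpbar1 level 0.503. The mean RPKM was 0.201 for Gpbar1, 0.0971 for Fgf15 and 0.0303 for Nr0b2, and these 3 overlapped one another.

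**Figure D1:**
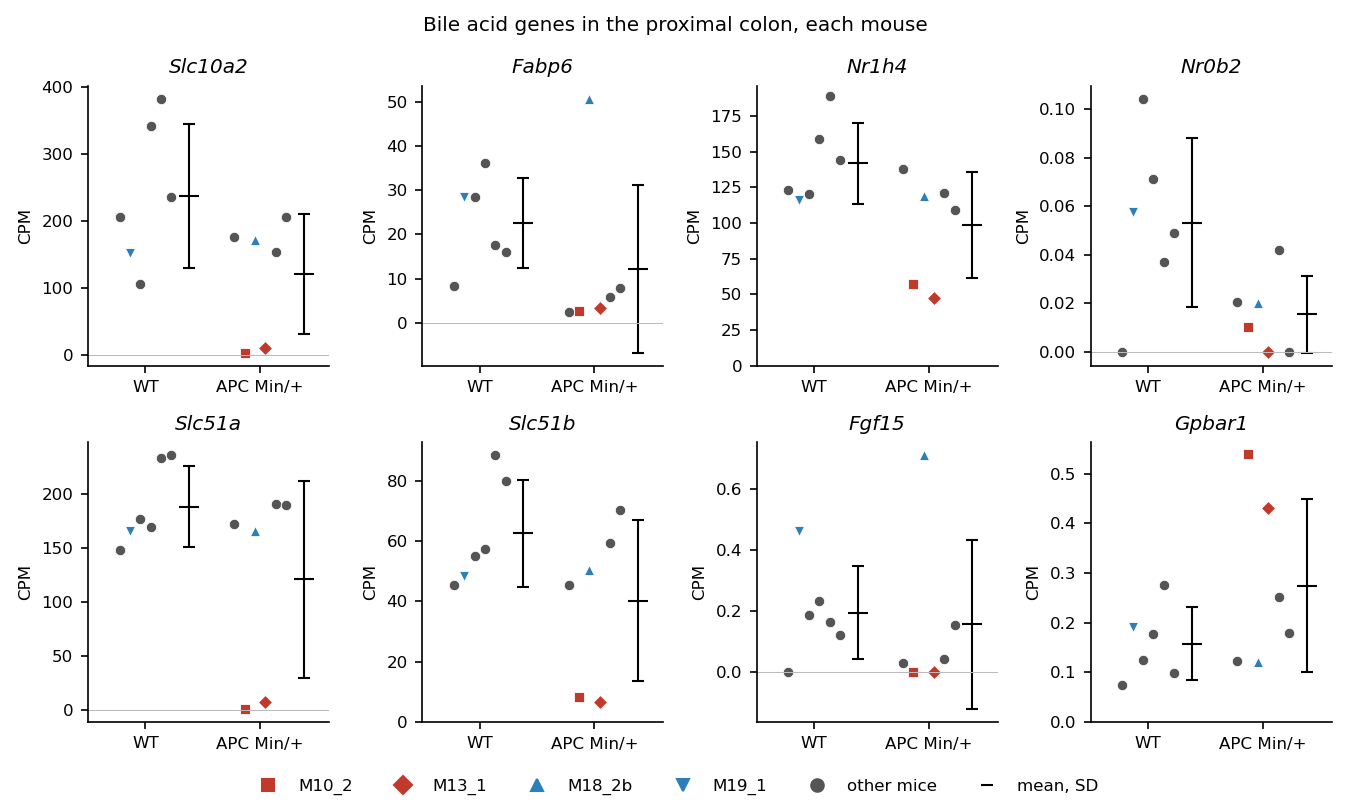
CPM of each of the 8 bile acid genes (one panel each, linear axis in CPM) in the 6 WT and 6 APC Min/+ mice, 1 point per mouse, with the mean and SD of each genotype at the right of its points. Slc10a2, Slc51a, Slc51b and Nr1h4 were lowest in M10_2 and M13_1, Gpbar1 was highest in those mice, and Fabp6 and Fgf15 were highest in M18_2b.

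Slc10a2, the uptake carrier, was well above the limit of counting in all 12 mice. In WT it was at 205 CPM in M17_2, 152 in M19_1, 105 in M16_1, 342 in M18_2a, 382 in M17_1 and 236 in M18_b. In APC Min/+ it was at 176 in M8_2, 172 in M18_2b, 154 in M2_A and 206 in M20_1, but at 2.86 in M10_2 and 10.3 in M13_1. Thus 4 of the 6 APC Min/+ mice lay inside the WT range, and the remaining 2 lay below all other mice. The genotype means were 120.1 ± 89.5 CPM (APC Min/+) and 237 ± 107 (WT), and the log2 fold change was -0.98 (SE 0.75, 95% interval -2.60 to 0.64, adjusted p = 0.910, edgeR). Without M10_2 and M13_1 it was -0.42 (SE 0.31, interval -1.09 to 0.24). The WT mice themselves spread over 3.64-fold, from M16_1 to M17_1.

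Fabp6, the cytosolic binding protein, varied 19.9-fold over the 10 mice other than M10_2 and M13_1, against at most 3.64-fold for the other 4 abundant genes. The WT values were 8.42 CPM in M17_2, 28.4 in M19_1, 28.4 in M16_1, 36.1 in M18_2a, 17.6 in M17_1 and 15.9 in M18_b. The APC Min/+ values were 2.55 in M8_2, 2.71 in M10_2, 50.7 in M18_2b, 3.24 in M13_1, 5.86 in M2_A and 7.93 in M20_1. Thus 5 of 6 APC Min/+ mice were below every WT mouse, and the last, M18_2b, was above every WT mouse. The genotype means were 12.2 ± 18.99 and 22.5 ± 10.18 CPM, and the difference did not pass the test (log2 fold change -0.89, SE 0.71, interval -2.43 to 0.65, adjusted p = 0.910).

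The size of that difference depended on M18_2b, though it passed the test in none of the fits run. Without M18_2b the log2 fold change of Fabp6 was -2.34 (adjusted p = 0.635, edgeR), and without M18_2b and M19_1, a choice made after the values were seen, it was -2.26 (SE 0.44, interval -3.22 to -1.30, unadjusted p = 0.00028, adjusted p = 0.797). Leaving out M10_2 and M13_1 instead gave -0.43 (SE 0.69). In M18_2b and M19_1 the Paneth cell defensin Defa24 and 4 of the 5 pancreas markers (Pnlip, Prss2, Cpa1 and Ctrb1) were also highest, Pnlip (pancreatic lipase) at 2.53 and 1.23 CPM against at most 0.0606 elsewhere. The remaining pancreas marker, Cela1, was at 25.4 CPM in each of them and highest in M10_2 and M13_1 (264 and 269), so the sum of the 5 was 33.5 and 28.8 CPM against 264 and 269. The part of these transcripts in the Fabp6 level was not tested. Fabp6 itself was highest in M18_2b, and in M19_1 it was below M18_2a.

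Slc10a2 and Fabp6 did not keep a fixed proportion. In the 10 mice other than M10_2 and M13_1, the ratio of Slc10a2 to Fabp6 in RPKM ran from 0.996 in M18_2b to 20.3 in M8_2, 2 mice whose Slc10a2 differed by less than 5 CPM.

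The export pair behaved differently. Slc51a was at 149 CPM in M17_2, 166 in M19_1, 177 in M16_1, 169 in M18_2a, 233 in M17_1 and 236 in M18_b (WT). In APC Min/+ it was at 172 in M8_2, 166 in M18_2b, 191 in M2_A and 189.8 in M20_1, against 1.01 in M10_2 and 7.53 in M13_1. Setting those aside, the other 10 mice spanned only 1.59-fold. The log2 fold change was -0.64 (SE 0.80, interval -2.37 to 1.10, adjusted p = 0.911) with all mice and -0.07 (SE 0.15, interval -0.39 to 0.25) without M10_2 and M13_1.

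Slc51b followed a similar order. It was at 45.3 CPM in M17_2, 48.6 in M19_1, 55.2 in M16_1, 57.5 in M18_2a, 88.8 in M17_1 and 80.2 in M18_b (WT). In APC Min/+ it was at 45.5 in M8_2, 50.6 in M18_2b, 59.6 in M2_A, 70.5 in M20_1, 8.27 in M10_2 and 6.65 in M13_1. M17_1 and M18_b were the highest mice for both subunits, and M10_2 and M13_1 the lowest. The log2 fold change was -0.64 (SE 0.49, interval -1.70 to 0.42, adjusted p = 0.910), and -0.15 (SE 0.20, interval -0.59 to 0.30) without M10_2 and M13_1.

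Per length, the 2 subunits were present at nearly equal levels in 10 of the mice. Their RPKM ratio (Slc51a over Slc51b) was 0.936 ± 0.0870 in WT (SD, n = 6) and ran from 0.802 to 1.15 over the 10 mice. In M13_1 it was 0.346 and in M10_2 0.0372, so in these mice Slc51a was reduced more than Slc51b: the median of the other 10 was 173 times the M10_2 level for Slc51a and 6.81 times for Slc51b. In M13_1 the corresponding factors were 23.2 and 8.48. Slc51a shares 567 bases with Pcyt1a, and Slc51b 2140 bases with Rasl12, both on the opposite strand. The strand setting of the counting is not given in the sources used here, so reads in those shared bases cannot be assigned with certainty.

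**Figure D2:**
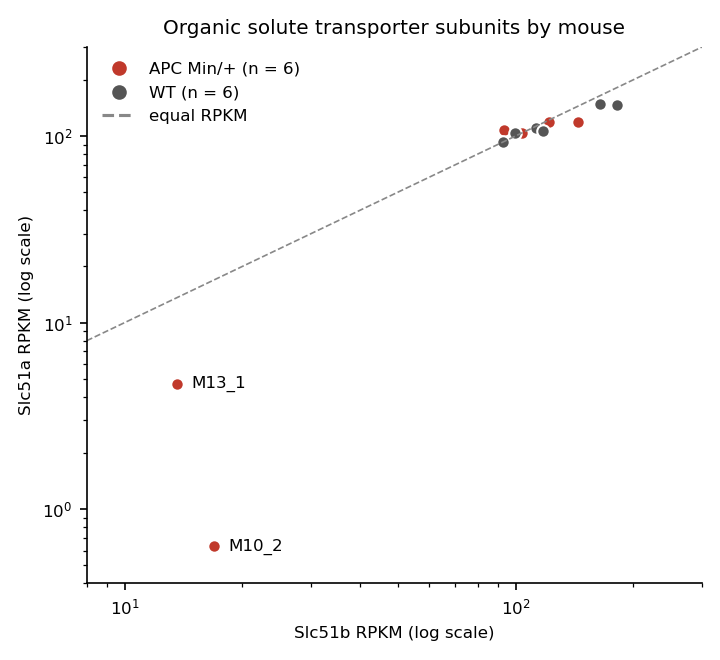
RPKM of Slc51a (y axis) against Slc51b (x axis) in each of the 12 mice, both on log scales, with red points for APC Min/+, grey points for WT and a dashed line of equal RPKM. In it, 10 mice lie near the line, with ratios of 0.802 to 1.15, and M13_1 (0.346) and M10_2 (0.0372) lie below it.

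Nr1h4, the nuclear bile acid receptor, was expressed in every mouse and spanned 3.96-fold from the lowest to the highest. In WT it was at 123 CPM in M17_2, 116 in M19_1, 120.2 in M16_1, 159 in M18_2a, 189 in M17_1 and 144 in M18_b. In APC Min/+ it was at 138 in M8_2, 119 in M18_2b, 121 in M2_A, 109 in M20_1, 57.4 in M10_2 and 47.8 in M13_1. Of the other 4 APC Min/+ mice, 3 lay inside the WT range and M20_1 lay just below it. The means were 98.7 ± 37.0 and 142 ± 28.3 CPM, with a log2 fold change of -0.52 (SE 0.25, interval -1.06 to 0.01, unadjusted p = 0.0536, adjusted p = 0.908), the narrowest interval of the 7 genes tested. Without M10_2 and M13_1 it was -0.22 (SE 0.15, interval -0.55 to 0.10). In M10_2 and M13_1 the receptor retained much more of its level than the transporters did: the median of the other 10 mice was 2.13 and 2.56 times their Nr1h4 level, against 66.6 and 18.5 times for Slc10a2.

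Gpbar1, the membrane receptor, was scarce but counted in all 12 mice, with 4 to 107 counts per mouse. It was at 0.0747 to 0.276 CPM in WT, with a median of 0.152, and in APC Min/+ at 0.123 in M8_2, 0.120 in M18_2b, 0.252 in M2_A, 0.179 in M20_1, 0.540 in M10_2 and 0.431 in M13_1. It was thus highest in the mice with the lowest transporter levels, at 3.56 and 2.84 times the median of the other 10. The log2 fold change was 0.78 (SE 0.44, interval -0.17 to 1.72, unadjusted p = 0.0992, adjusted p = 0.908), and 0.04 (SE 0.39, interval -0.81 to 0.89) without M10_2 and M13_1. Macrophages are a known source of Gpbar1, and the sum of 7 macrophage markers was 198 CPM in M10_2, 90.8 in M13_1 and 139 to 265 in the other 10. The part of macrophages in the Gpbar1 level was not tested.

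Nr0b2, the repressor induced by FXR in liver and ileum, was practically at the counting limit. In WT it had 0, 6, 10, 8, 4 and 4 counts in M17_2, M19_1, M16_1, M18_2a, M17_1 and M18_b. In APC Min/+ it had 4, 2, 2, 0, 4 and 0 counts in M8_2, M10_2, M18_2b, M13_1, M2_A and M20_1. At least 3 counts were reached in 7 mice, 5 of them WT, and 10 counts in 1 mouse. In M17_2, 3 counts correspond to 0.0560 CPM, which is above most values measured elsewhere. Both mates of a pair were counted, so 0 counts allow a higher level still, and a difference was not detectable at this depth. In the fit without a filter on low counts the unadjusted p was 0.0403 and the adjusted p 0.725, and no fold is given because most APC Min/+ libraries were at or under the floor of 3 counts.

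Fgf15, the enterohepatic hormone, was detected at low level and unevenly. It had 71 counts in M18_2b (0.712 CPM) and 48 in M19_1 (0.461 CPM), the highest of all mice. The other WT mice had 0 counts in M17_2, 18 in M16_1, 26 in M18_2a, 18 in M17_1 and 10 in M18_b, up to 0.232 CPM. The other APC Min/+ mice had 6 counts in M8_2, 0 in M10_2, 0 in M13_1, 4 in M2_A and 12 in M20_1, up to 0.153 CPM. The hormone was thus found at 3 or more counts in 9 of 12 mice. In the mice with 0 counts, 3 counts correspond to 0.0152 CPM in M10_2, 0.0331 in M13_1 and 0.0560 in M17_2. Both mates of a pair were counted, so the level that 0 counts allow is higher than these values. The genotypes overlapped, and the log2 fold change was -0.40 (SE 1.04, interval -2.64 to 1.84, adjusted p = 0.948).

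Its direction was not stable. Without M10_2 and M13_1 the log2 fold change of Fgf15 was 0.19, without M19_1 it was 0.04, and without M18_2b it was -2.31. Without both M18_2b and M19_1 it was -1.86 (SE 0.97). The 2 mice with most Fgf15 were those with most Defa24, Pnlip, Prss2, Cpa1 and Ctrb1, though not Cela1, and whether those transcripts and Fgf15 share a source was not tested. M18_2b and M19_1 were the 2 highest mice for 183 of the 20311 genes tested, and of the 8 bile acid genes for Fgf15 alone. The antisense genes Gm26793 and Gm39119 overlap Fgf15 by 931 and 1641 bases, so part of these few reads could belong to them.

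None of the 7 genes tested was called between the genotypes, at an adjusted p below 0.05 and a 2-fold change, against a background of 0 of 20311 genes (0%). The paper did report differentially expressed genes from edgeR at these thresholds, with none of the 8 bile acid genes among them. At an unadjusted p below 0.05, again none of the 7 passed, while 368 of all genes tested were lower in APC Min/+ (1.81%) and 703 higher (3.46%). DESeq2 called 27 genes and the likelihood ratio test of edgeR 15, with none of the 7 among either, and the lowest DESeq2 adjusted p among them was 0.757 (Nr1h4). A negative log2 fold change was found for 6 of the 7, among them Fgf15, which met the count threshold in WT but not in APC Min/+. The median of the 7 was -0.64 beside -0.01 over all genes tested, but -0.15 without M10_2 and M13_1. The CPM ranges of the genotypes overlapped for all 8 genes, while they did not overlap for 24 of the genes tested (0.118%).

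**Figure D3:**
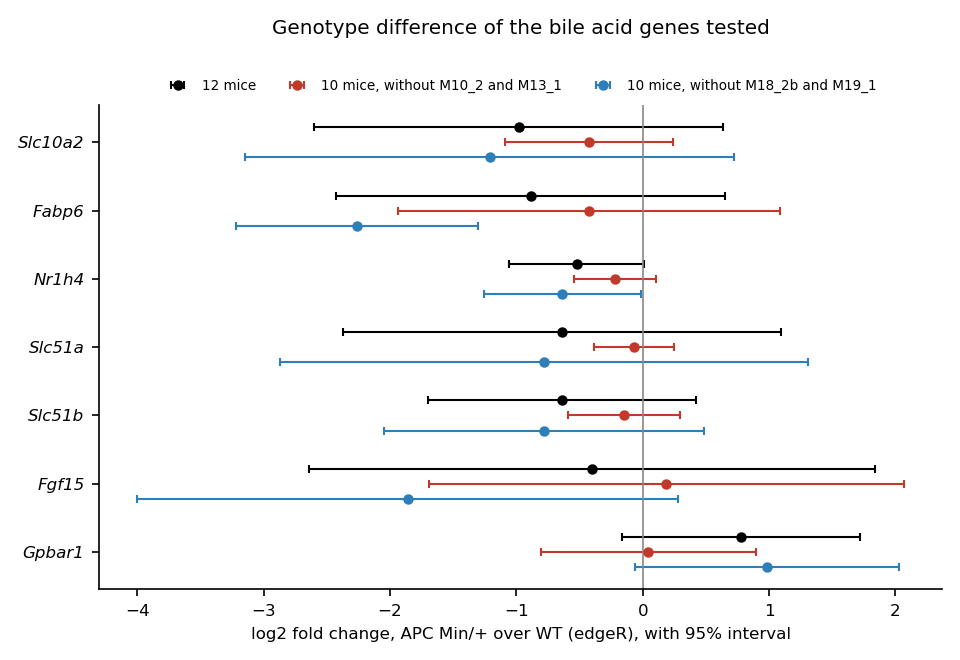
Log2 fold change of APC Min/+ over WT (x axis, with its 95% interval) for the 7 genes tested (y axis), fitted in edgeR with 12 mice (black), without M10_2 and M13_1 (red) and without M18_2b and M19_1 (blue). The mice left out in blue were chosen after the values were seen. All 7 black intervals include 0, the interval of Slc51a narrows from -2.37 to 1.10 down to -0.39 to 0.25 in red, and that of Fabp6 lies below 0 in blue.

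On the fold scale, the largest departures were those of 2 APC Min/+ mice. Of the 7 genes tested, 4 (Slc10a2, Slc51a, Slc51b and Nr1h4) were lower in both M10_2 and M13_1 than in any other mouse, as were 2478 of all genes tested (12.2%). Gpbar1 was higher in both than in any other mouse, as were 2392 of all (11.8%). Fabp6 was low in both, at 2.71 and 3.24 CPM, but M8_2 was lower still at 2.55. Cdx2, an intestinal transcription factor, was at 49.9 and 20.6 CPM in these mice, against a median of 202 in the other 10. The lowest of the other 10 was the WT mouse M17_1, with Cdx2 at 66.6 CPM and the highest Slc10a2 of all mice (382 CPM). The part of Cdx2 in these levels was not tested.

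**Figure D4:**
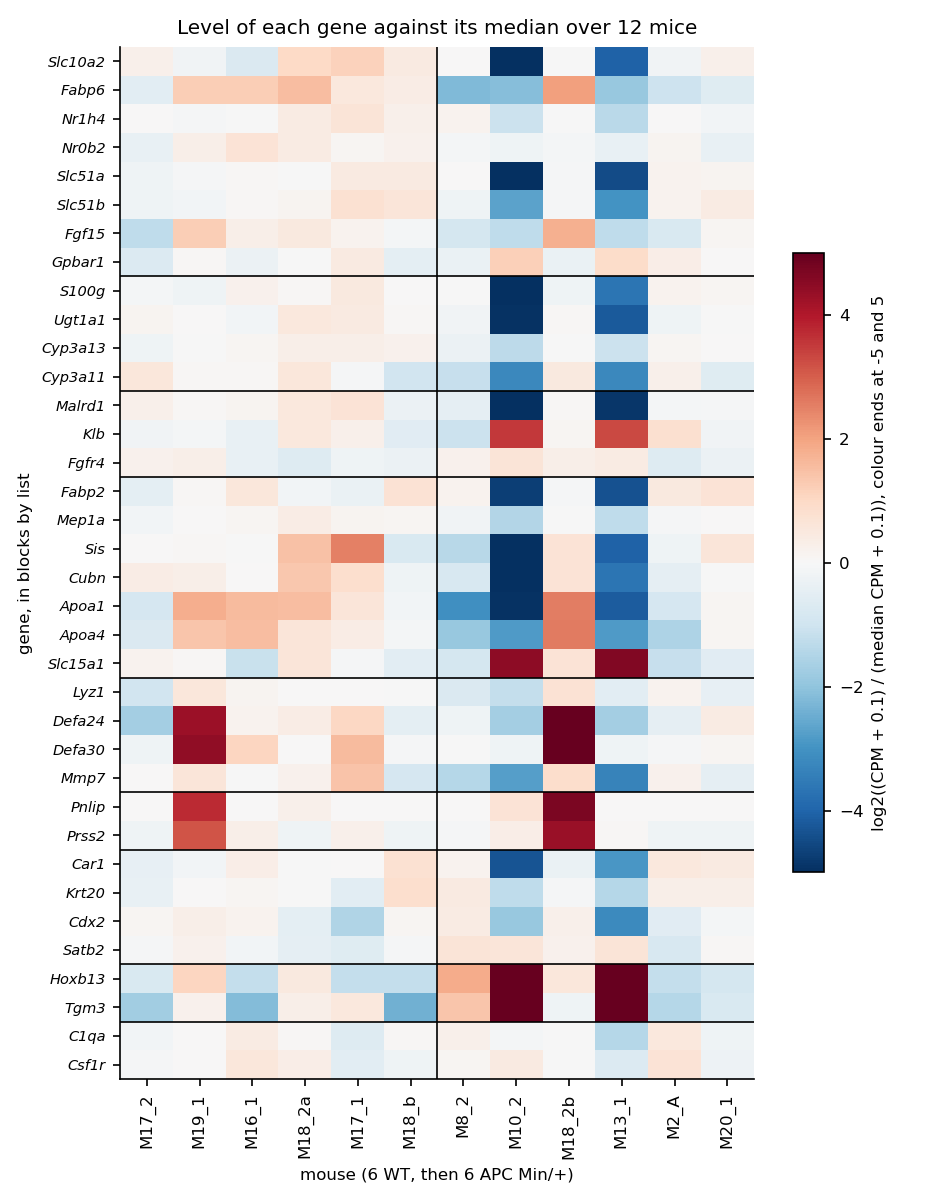
Heatmap of log2((CPM + 0.1) / (median CPM + 0.1)) for the 8 bile acid genes (top block) and examples from other gene lists, chosen after their values were seen, in blocks by list (rows), in 6 WT and 6 APC Min/+ mice (columns), with blue below and red above the median of 12 mice and colours ending at -5 and 5. M10_2 and M13_1 show blue for Slc10a2, Slc51a, Slc51b, S100g and Malrd1 and red for Klb, Hoxb13 and Tgm3, and M18_2b and M19_1 show red for Defa24, Defa30 and Pnlip.

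Over the 10 mice without M10_2 and M13_1, 28 pairs among the 8 genes were compared on log2(CPM + 0.1), since those mice form a cluster of their own that would dominate a pooled correlation. Slc51a and Slc51b varied together (Pearson r = 0.93, adjusted p = 0.00364; Spearman rho = 0.87, adjusted p = 0.0301; permutation test, two-sided, n = 10), and r was 0.79 after the 2 mice farthest from the median of Slc51a were left out. Fabp6 and Fgf15 were also correlated (r = 0.83, adjusted p = 0.0414; rho = 0.89, adjusted p = 0.0301; permutation test), and r was 0.77 without the 2 farthest mice. Slc10a2 and Nr1h4 gave r = 0.80 (adjusted p = 0.0497; rho = 0.67, adjusted p = 0.368; permutation test), but r was 0.33 without the 2 mice farthest on Nr1h4, so that relation rested on those mice. The other 25 pairs did not pass, Slc10a2 with Fabp6 among them (r = 0.08). Genotypes were pooled in these correlations.

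The genes most like each of the 7 tested over all 12 mice, by Pearson r of log2(CPM + 0.1), are given as a description, since M10_2 and M13_1 weigh heavily in it. For Slc10a2 they were Tmigd1 (r = 0.99), Cyp4b1, Ugt1a1 and Slc3a1. For Slc51a they were S100g (r = 0.997), Ugt2b5, Cyp2c65 and Cyp2c66, and for Slc51b Mgat4c (r = 0.99), Guca2a, Ugt2b37 and Hsd3b6. Nr1h4 was closest to Prss30 (r = 0.98), Jmjd6, Wdfy1 and Dnajc22, and Gpbar1 to Clca2 (r = 0.96), Clec14a, Sept10 and Gm5148. Fabp6 stood with the apolipoprotein genes Apoa4 (r = 0.95) and Apoa1 and with Bcl2l15 and Slc6a19. Fgf15 stood with Defa24 (r = 0.93), Apoa4, Iglv1 and Defa22. Over the 10 mice without M10_2 and M13_1, the closest gene to Slc10a2 was Pcf11 (r = 0.95) and to Slc51a 2200002D01Rik (r = 0.96), while Apoa1 (r = 0.96) was still among the 4 closest to Fabp6 and Defa24 (r = 0.92) the closest to Fgf15.

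Whether other genes typical of the small intestine were present bears on how Slc10a2 and Fabp6 are read. Of 24 markers of small intestinal enterocytes, 20 had at least 3 counts in all 12 mice. Some were abundant: Fabp2, a fatty acid binding protein, was at 949 ± 331 CPM in WT, and the brush border protease Mep1a at 838 ± 96.3. Others were scarce, such as lactase (Lct), at 0.237 ± 0.143 CPM in WT. Fabp1, the liver-type binding protein abundant in jejunum, which is on the list of transport genes and not among the 24, was at 0.747 ± 0.340. The 24 genes summed to 2415 to 3496 CPM in WT, 1143 in M10_2, 1217 in M13_1 and 2621 to 3291 in the other APC Min/+ mice. Of the 23 tested, 12 were lower in both M10_2 and M13_1 than elsewhere, beside 12.2% of all genes. Sis (sucrase-isomaltase) was among the 12, at 0.995 and 3.03 CPM. Another 2 were higher in both than elsewhere, beside 11.8% of all genes. These were the peptide transporter Slc15a1, at 251 and 283 CPM against 5.04 to 18.15, and Slc5a1, at 231 and 227 against 135 to 210. None of the 23 was called between genotypes here, whereas the paper listed Slc15a1 among its differentially expressed genes.

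No gene of the other bile acid lists was called between genotypes. Of 13 further transport genes, 12 were tested and none called. At an unadjusted p below 0.05, which 5.27% of all genes reached, Abcc2, a canalicular and apical export pump, was lower in APC Min/+ (7.31 ± 2.15 against 11.5 ± 2.70 CPM, adjusted p = 0.908, edgeR), Fabp1 was lower (0.316 ± 0.263 against 0.747 ± 0.340) and Abcc4 was higher (15.7 ± 5.78 against 10.5 ± 3.05), with the same adjusted p. Fabp1 was lowest in M10_2 and M13_1 (0.0606 and 0.0442 CPM) and Abcc4 highest there (22.7 and 23.0). Without these mice Abcc2 alone stayed under that threshold, with an adjusted p = 0.9999 (edgeR). Abcb1a and Abcc3, export pumps of the apical and basolateral membrane, were abundant, at 1753 ± 638 and 329 ± 132 CPM in APC Min/+ and 2282 ± 466 and 365 ± 115 in WT. The liver uptake carrier Slc10a1 did not reach 3 counts in any mouse.

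Among 13 other receptors and their partners, 12 were tested. None was lower in both M10_2 and M13_1 than in every other mouse (12.2% of all genes), and 3 were higher in both (Nr1i3, Nr1h3 and Gata6, beside 11.8% of all genes). Nr1i2 (PXR), which also senses bile acids, was at 83.1 ± 4.46 CPM in APC Min/+ and 85.5 ± 5.77 in WT, with M10_2 and M13_1 inside the range of the others. Vdr, the vitamin D receptor, which binds lithocholic acid, was at 495 ± 86.2 and 523 ± 52.6. Hnf4a was at 766 ± 148 and 701 ± 211. Nr1i3 (CAR) was the only one past an unadjusted p of 0.05, with a log2 fold change of 1.19 (SE 0.46, adjusted p = 0.908), and 0.56 without M10_2 and M13_1.

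Of the 3 other genes of the Fgf15 axis, 1 was lower and 2 were higher in both M10_2 and M13_1 than in any other mouse. Malrd1, which promotes Fgf15 production in ileal cells, was at 0.187 and 0.342 CPM there and at 9.39 to 20.5 elsewhere. Klb, the co-receptor that Fgf15 needs, was at 23.6 and 19.9 CPM and at 0.867 to 3.45 elsewhere, with a log2 fold change of 2.17 (SE 0.74, adjusted p = 0.908) that was 0.08 without those mice. Fgfr4, the receptor kinase, was also higher there, at 14.2 and 11.97 CPM, than elsewhere, at 5.66 to 11.2. Its means were 10.1 ± 3.14 CPM in APC Min/+ and 8.13 ± 2.06 in WT.

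Of 10 genes for bile acid synthesis and conjugation, 5 were tested and none called. Cyp7a1, the rate-limiting enzyme of the classical pathway in liver, had no count in any mouse, whereas Cyp27a1 was at 32.3 ± 5.74 and 37.9 ± 11.7 CPM and Hsd3b7 at 36.2 ± 8.31 and 43.7 ± 6.51. All 10 detoxification genes and receptor targets were tested, and none was called or reached an unadjusted p of 0.05. Of the 10, 8 were lower in both M10_2 and M13_1 than in any other mouse, beside 12.2% of all genes. S100g, a calcium-binding protein induced through the vitamin D receptor, was at 11.2 and 43.0 CPM there and at 469 to 760 elsewhere, and Cyp3a13 averaged 344 ± 126 in APC Min/+ and 474 ± 64.8 in WT.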

How the data were processed

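The authors sequenced proximal colon RNA of each mouse as 100 base read pairs, aligned them with STAR (2.3.0 in the submitters' processing notes) to GRCm38 (GRCm38.p2) and counted reads on genes with featureCounts. They deposited raw counts and a gene length, in bases, per mouse. The featureCounts version, annotation and strand setting are not given in the sources used here. Of counts from 1 to 10, 77.0% to 83.1% were even per mouse, so both mates of a pair were counted and floors cover counting error only. No 2 libraries agreed within sampling noise.

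Of the 38924 identifiers, 37607 matched a symbol, and coordinates are from GENCODE M21 (GRCm38). The main test was the edgeR (4.0.16, in R 4.3.3) quasi-likelihood test with TMM scaling, on genes that reached 10 counts in 3 or more mice, in 1 fit of 12 mice with no covariate. A call needed a Benjamini-Hochberg adjusted p below 0.05 and a 2-fold change. Intervals are 95%. CPM is TMM-scaled, RPKM uses the deposited lengths, and 3 counts is the floor. Alternatives were DESeq2 (1.42.0), the likelihood ratio test, other scalings and filters, and leaving out mice. The test was first tested on simulated data. Correlations used 100000 permutations.

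The members, the gene lists and the mice left out were chosen with earlier results of these data known. The genes named are drawn from the 8 members and, of each other list, from the 4 highest by mean RPKM and the 2 with the largest absolute log2 fold change. Not every gene that this rule picks is described. Cdx2, Lct, Abcc2, Abcc4, Slc10a1, Cyp7a1, Cpa1, Nr1h3 and the examples in the heatmap were chosen after their values were seen. Of the marker lists, none of 7 macrophage, 8 enteroendocrine, 7 enteric neuron, 5 smooth muscle, 5 liver and 5 pancreas markers was called. Of these, the paper listed Insl5, Ttr and Cela1 as differentially expressed. One colonocyte marker is not reported here.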

Additional observations from a re-analysis of the deposited data

Results flagged for a closer look

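Fabp6 and Fgf15 were far higher in the APC Min/+ mouse M18_2b than in the other 5 mice of its genotype. Fabp6 was at 50.7 CPM there, and the gap to the next mouse was 0.888 of the whole range of the genotype. Fgf15 was at 0.712 CPM, with a gap of 0.785 of the range. Both exceed 0.625, the 95% critical value of Dixon's test for 6 samples. Chance flags about 1 in 20 groups, and 16 groups (8 genes in 2 genotypes) were examined, of which these 2 were singled out. M18_2b also held the highest summed level of Paneth cell markers, 79.5 CPM, with 55.0 in M19_1 and 12.5 to 33.5 in the other 10 mice.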

How the results depend on the processing

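Of 138 values for the genotype difference of the 7 genes tested under other filters, scalings, tests and sets of mice, 136 kept their direction and their side of the threshold, and none became significant. The log2 fold change of Fgf15 changed sign under 2 alternatives: it was 0.19 without M10_2 and M13_1, and leaving out single mice gave -2.31 to 0.0443 (the latter without M19_1). That of Fabp6 ranged from -2.34 to -0.68 when single mice were left out. Without M17_1, the highest mouse for Slc10a2, Slc51b and Nr1h4, the log2 fold changes of these genes were -0.78, -0.52 and -0.42. The number of genes called was 0 in edgeR's quasi-likelihood test (1071 at an unadjusted p below 0.05), 27 with DESeq2 and 15 with the likelihood ratio test, and DESeq2 and the likelihood ratio test each called 3 of 5 distal colon markers. The paper, with edgeR, listed all 5 of these markers as differentially expressed. The cause of these differences was not tested. With a minimum of 10 counts in place of 3, Nr0b2 was detected in 1 mouse in place of 7 and Fgf15 in 7 in place of 9. TPM in place of RPKM gave the same order of the 8 genes. No paired analysis was possible because the genotypes share only 1 number in their mouse names (18), whose meaning the labels do not give, and the replicate numbers used here follow accession order and pair nothing.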
